A study of Drosophila melanogaster with 6 samples.

Results

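The mitochondrial ribosome is a separate ribosome inside mitochondria that translates the few proteins encoded by the mitochondrial genome, most of them core subunits of the respiratory chain. Its RNA is made in the organelle, whereas all of its proteins are encoded in the nucleus, translated in the cytosol and imported. It has a small subunit, which binds mRNA and decodes it, and a large subunit, which forms peptide bonds. Some of its proteins have bacterial counterparts and carry the bacterial number, and others are found only in mitochondria and carry higher numbers.

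Mitochondrial ribosomal protein genes were chosen by symbol, as all genes whose FlyBase symbol begins with mRpL or mRpS and a number. The rule found 73 genes among the 16451 in the files, 47 of the large and 26 of the small subunit by symbol. Of these, 42 carry numbers shared with bacterial ribosomal proteins (large up to 36, small up to 21) and 31 carry higher numbers. All 73 passed the filter on low counts. Symbols name the subunit by history: in mammalian structures the homologs of mRpS30 and mRpS18A sit in the large subunit.

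RNA was sequenced from 6 libraries of S2 cells, an embryo-derived, hemocyte-like Drosophila melanogaster line with a wild type genotype. In 3 libraries the cells had received 10 mM H2O2 (hydrogen peroxide, an oxidant) for 30 min at 25 °C. In 3 control libraries, whose label reads no treatment, the cells had received only an equal volume of culture medium. All cultures were kept at 25 °C in Schneider's medium with 10% serum and antibiotics, and the series title places the comparison in work on nuclear p38 and oxidative stress. Whether the libraries of a group are separate cultures is not in the labels, and the p-values below cover library-to-library spread only, some or all of which may be technical.

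Library totals were 35404918 to 42043802 expected counts in H2O2 libraries and 36806487 to 39253167 in control libraries. Of 10 hemocyte markers, 9 were above 0 in every library, among them srp, the GATA factor of blood cells, at 121 to 127 TPM (a length-scaled relative level of transcripts within a library) after H2O2 and 112 to 133 TPM in controls. The germ-line gene vas and the muscle gene Mhc were under 1 TPM in every library, while bam, another germ-line gene, had 94.7 to 132 TPM after H2O2 and 95.9 to 126 TPM in controls. The full list of 6 markers of other tissues also held the neuron genes elav and brp and the muscle gene Act88F. It summed to 102 to 138 TPM after H2O2 and 105 to 134 TPM in controls. The 5 of its genes that passed the filter had a median of 3.065 TPM over all libraries. The hemocyte marker list summed to 1678 to 1874 TPM after H2O2 and 2063 to 2352 TPM in controls, and its median log2 fold change was −0.13. Of its genes 1 was called higher and 0 lower without the block, and 1 higher and 3 lower with it (edgeR). Of all genes tested, 2.57% were called higher and 0.570% lower without the block, and 8.99% and 12.8% with it. The markers are long, with a median of 4404 nt against 1873 nt for all genes tested. With the block and the length trend described below removed, their median was 0.04, and 1 was called higher and 0 lower. Of all genes, 5.99% and 1.62% were. The gene called higher, gcm, had 0.24 to 0.43 TPM after H2O2 and was listed at 0 to 0.05 TPM in controls. The part of these markers in the results below was not tested.

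Transcripts of the mitochondrial ribosome were moderately abundant and present in every library. The 73 genes together made up 0.633%, 0.399% and 0.415% of all transcripts in H2O2 replicates 1, 2 and 3, and 0.627%, 0.391% and 0.417% in control replicates 1, 2 and 3. In both groups replicate 1 stood well above replicates 2 and 3, and within each replicate number the H2O2 and control libraries lay close together. The median member had 79.0, 46.1 and 49.4 TPM in the H2O2 replicates and 74.7, 45.3 and 48.9 TPM in the control replicates. The lowest count of any member in any library was 296 and the highest 9342.

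**Figure D1:**
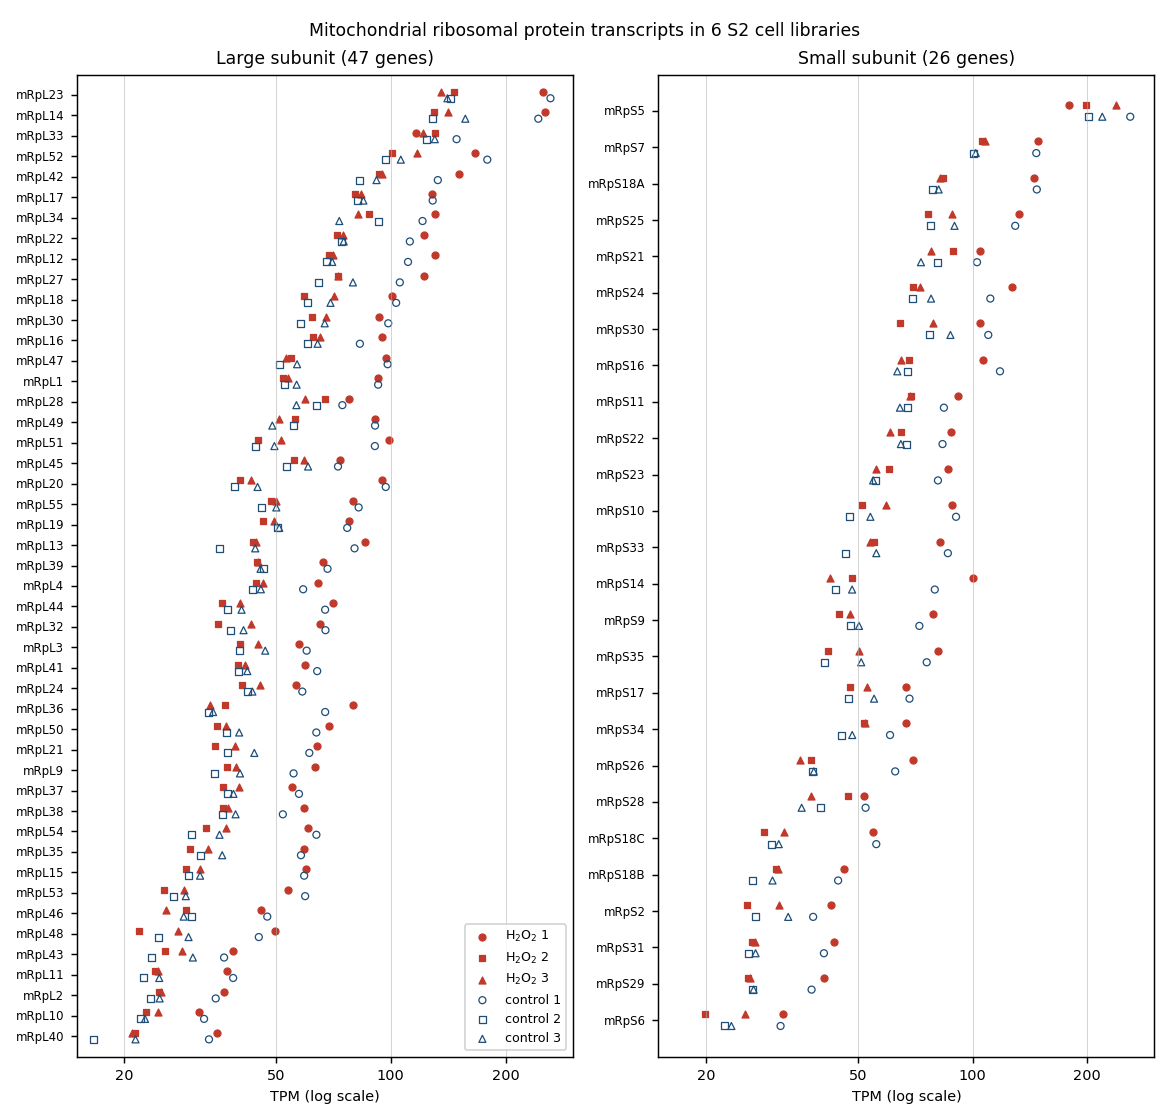
TPM of each of the 73 genes (rows, ordered by mean level; log axis) in the 3 H2O2 libraries (filled) and the 3 control libraries (open), with circles, squares and triangles for replicates 1, 2 and 3; each point is 1 library. Circles lie to the right in both groups for nearly every gene, while filled and open symbols of the same shape lie close together, and mRpS5 and mRpL33 are the 2 genes whose filled circle is not to the right.

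Although the proteins form 1 particle, their transcripts spanned a wide range. By the mean over the 6 libraries the most abundant was mRpS5 (FBgn0287187, chromosome 3L, 24537236 to 24543534), whose bacterial counterpart lies at the mRNA entry channel of the small subunit. It had 179, 198 and 238 TPM in H2O2 replicates 1, 2 and 3, and 259, 202 and 219 TPM in control replicates 1, 2 and 3. The large-subunit gene mRpL23, whose bacterial counterpart lines the exit of the peptide tunnel, had 250, 147 and 136 TPM after H2O2 and 262, 143 and 141 TPM in controls. In both libraries numbered 1 mRpL23 was above mRpS5, and in the other libraries below it. The groups overlapped for both genes, and replicate 1 was the highest of each group for mRpL23 but the lowest H2O2 library for mRpS5.

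Next in level were mRpL14, a core large-subunit protein at the interface between subunits, with a mean of 175 ± 68.6 TPM after H2O2 and 176 ± 60.0 TPM in controls (SD, n = 3 each), mRpL52, a protein known only from mitochondrial ribosomes, with 128 ± 34.0 and 127 ± 45.0 TPM in the same order, and mRpL33. At the low end, mRpL40 had 34.9, 21.4 and 20.98 TPM after H2O2 and 33.4, 16.6 and 21.4 TPM in controls. The stalk protein genes did not share a level. The stalk is the arm of the large subunit that recruits translation factors, and mRpL12, its tip, averaged 90.1 ± 35.5 TPM after H2O2 and 83.1 ± 24.2 TPM in controls, whereas mRpL10, which anchors it, averaged 26.2 ± 4.51 and 25.7 ± 5.77 TPM, and mRpL11, at its base, 28.6 ± 7.52 and 28.6 ± 8.75 TPM (SD, n = 3 each, H2O2 before control). The other 2 of the 5 lowest, mRpL2, a core protein beside the catalytic centre, and mRpS6, of the small-subunit platform, averaged 28.7 ± 6.76 and 25.6 ± 5.98 TPM after H2O2 and 27.7 ± 6.16 and 25.7 ± 4.95 TPM in controls.

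The 3 S18 paralogs, related proteins that each bear the number of a single bacterial one, also differed in level. The gene mRpS18A had 145, 83.6 and 82.3 TPM after H2O2 and 147, 78.4 and 81.5 TPM in controls. By contrast mRpS18B had 46.1, 30.6 and 30.8 TPM after H2O2 and 44.4, 26.5 and 29.9 TPM in controls, and mRpS18C had 54.9, 28.4 and 32.0 TPM after H2O2 and 55.9, 29.7 and 31.0 TPM in controls. In every library mRpS18A was above both paralogs, and the order of mRpS18B and mRpS18C was not the same in all libraries. By subunit, the median small-subunit gene had 84.3, 51.7 and 53.4 TPM in the H2O2 replicates and 80.4, 47.4 and 54.4 TPM in the control replicates, and the median large-subunit gene 73.8, 43.6 and 44.9 TPM and 68.3, 42.2 and 45.6 TPM. The small-subunit median was higher in each of the 6 libraries.

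The order of the members by level was nearly the same in all libraries. Spearman's rho across the 73 genes was 0.981, 0.985 and 0.992 between the H2O2 and control libraries numbered 1, 2 and 3, and 0.922 at the lowest, between H2O2 replicate 1 and control replicate 2. These values are descriptions over genes that share their libraries.

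After H2O2, 0 of the 73 mitochondrial ribosomal protein genes were called in a fit with group as the only term, and 2, mRpS34 and mRpL42, were called higher in a fit that also held the replicate number, described further on. In the first fit edgeR's quasi-likelihood test on counts with TMM scaling and Benjamini-Hochberg adjustment called 0 of the 73 members in either direction, against 3.14% of the 8955 genes tested, 2.57% higher and 0.570% lower. The smallest adjusted p of a member was 0.582, and 0 of 73 had an unadjusted p under 0.05, against 14.0% of all genes tested. DESeq2 and limma on log2(TPM + 1) also called 0 members, against 7.88% and 0.825% of the genes they tested. The H2O2 and control libraries overlapped for all 73 members in normalized counts, where 20.4% of all genes tested did not overlap (9.98% higher and 10.4% lower after H2O2). In TPM all 73 overlapped as well, where 22.3% of all genes tested did not (6.81% higher and 15.4% lower).

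Fold changes of the members were small and mostly on the positive side. Their log2 fold changes (H2O2 over control, on TMM-scaled counts) ran from −0.06 to 0.27 with a median of 0.12, and 70 of 73 were above 0. Over all genes tested the median was 0.02 and 54.8% were above 0. The standard error (SE) of the members' fold changes had a median of 0.25 and exceeded the fold change itself in 66 of 73. The median was 0.11 for large-subunit and 0.14 for small-subunit genes, and 0.10 for genes with bacterial numbers and 0.12 for those with higher numbers.

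**Figure D2:**
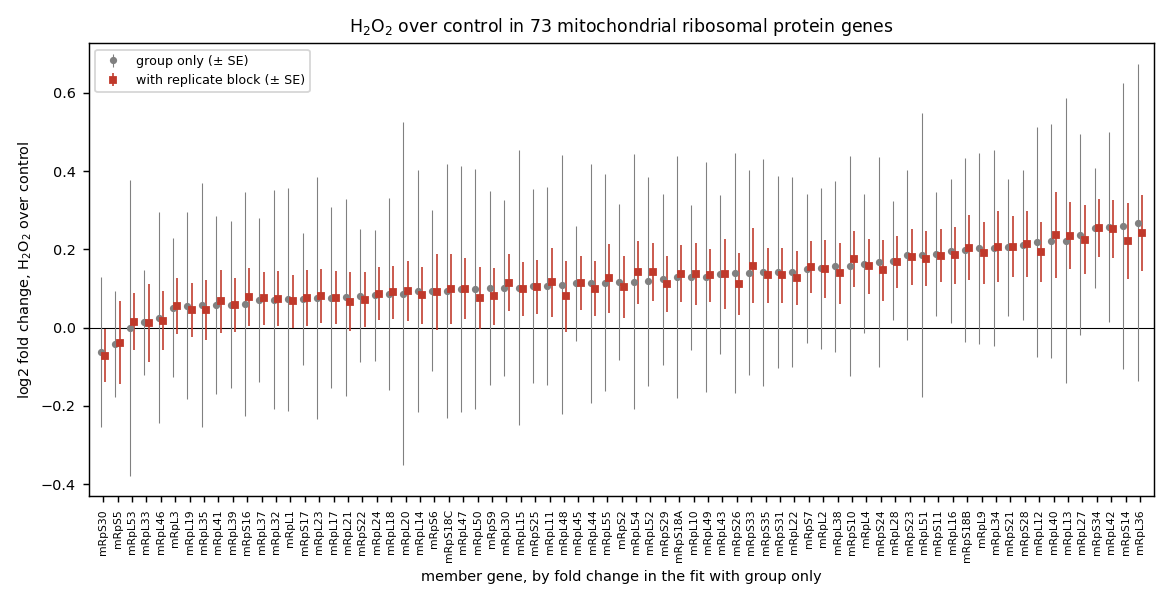
Log2 fold change of H2O2 over control for each of the 73 genes, ordered by the fit with group as the only term (grey circles, ± SE) and shown beside the fit that adds the replicate number (red squares, ± SE). The estimates of both fits lie between −0.07 and 0.27 and nearly coincide, and the bars of the second fit are shorter for the same genes.

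The replicate numbers were read as pairing the libraries, from the check in the processing account and not from the labels. A second fit that blocks on the number was therefore set beside the first. It left the estimates as they were, with a median log2 fold change of 0.12, and lowered the median SE of the members to 0.07. With the block, 2 members were called higher and 0 lower, where 8.99% and 12.8% of all genes tested were (21.7% in all). An unadjusted p under 0.05 was reached by 20 of 73 members, against 36.3% of all genes tested. The 95% confidence intervals of all 73 members in this fit lay between −0.28 and 0.48 on the log2 scale, that is between 0.824-fold and 1.39-fold. Without the block the intervals reached from −0.95 to 1.22.

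Both members called with the block carry numbers above the bacterial range. The small-subunit gene mRpS34 (FBgn0285951, chromosome 3L, 16348074 to 16348782, a single exon) had 67.0, 52.1 and 52.1 TPM in H2O2 replicates 1, 2 and 3, and 60.8, 45.3 and 48.4 TPM in control replicates 1, 2 and 3. The H2O2 library was the higher of each same-numbered pair, and the groups overlapped because replicate 1 was high in both. Its log2 fold change was 0.26 with the block (SE 0.07, adjusted p = 0.0295, edgeR) and 0.25 without it (SE 0.15, adjusted p = 0.582).

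The large-subunit gene mRpL42 (FBgn0033480, chromosome 2R, 10066650 to 10067242) had 151, 93.1 and 94.9 TPM after H2O2, and 133, 82.8 and 91.7 TPM in controls. The H2O2 library was again the higher of each pair. Its log2 fold change was 0.25 with the block (SE 0.08, adjusted p = 0.0342, edgeR) and 0.26 without it (SE 0.24, adjusted p = 0.789). When the trend with transcript length described below was also taken out, mRpS34 had 0.10 (adjusted p = 0.444) and mRpL42 0.07 (adjusted p = 0.675), and 0 of the 73 members were called, against 7.60% of all genes tested (5.99% higher and 1.62% lower).

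The other members with the highest fold changes were mRpL36 (0.27, SE 0.41), mRpS14 (0.26, SE 0.37) and mRpL27 (0.24, SE 0.26), all homologs of bacterial proteins, and none was called in either fit. For mRpS14, whose bacterial counterpart sits in the small-subunit head, the values were 100, 48.2 and 42.4 TPM after H2O2 and 79.6, 43.7 and 48.3 TPM in controls, higher after H2O2 in pairs 1 and 2 and lower in pair 3. The lowest fold changes were those of mRpS30 (−0.06, SE 0.19), mRpS5 (−0.04, SE 0.14), mRpL53 (−0.00, SE 0.38), mRpL33 (0.01, SE 0.13) and mRpL46 (0.03, SE 0.27).

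The member with the longest transcript was mRpS30, of 1895 nt. It had 105, 64.6 and 78.7 TPM after H2O2 and 110, 77.4 and 87.5 TPM in controls, with the H2O2 library the lower of each pair. Its adjusted p was 0.956 without the block and 0.486 with it.

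The members picked for their role lay within the same narrow range. The core large-subunit gene mRpL3 had a log2 fold change of 0.05, mRpL12 of the stalk 0.22, and mRpL10 and mRpL11 at its base 0.13 and 0.11. The gene mRpL44, with a fold like RNase III, had 0.11, as did mRpL45, whose mammalian homolog anchors the ribosome to the inner membrane. In the small subunit mRpS2 had 0.12, mRpS29, the homolog of the GTP-binding protein DAP3, 0.12, and mRpS18A, mRpS18B and mRpS18C 0.13, 0.20 and 0.09. Their adjusted p in edgeR was at least 0.851 without the block and at least 0.0942 with it. The genes tko and bonsai encode the mitochondrial S12 and S15 proteins, but their symbols fall outside the rule. They had log2 fold changes of 0.18 (SE 0.28) and 0.12 (SE 0.34), and neither was called in either fit.

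Within the pairs of same-numbered libraries the members moved little. In TPM the median log2 ratio of H2O2 to control was 0.02, 0.02 and −0.02 in pairs 1, 2 and 3, and the SD over the 73 members was 0.13, 0.11 and 0.08. The ratio was above 0 in 43, 44 and 32 members, which is 58.9%, 60.3% and 43.8%, against 37.5%, 33.2% and 43.5% of all genes tested. An absolute log2 ratio under 0.2 was found in 67, 66 and 73 members. The largest ratio was that of mRpS5 in pair 1, at −0.53, followed by mRpL40 in pair 2 at 0.37, mRpL33 in pair 1 at −0.35 and mRpS14 in pair 1 at 0.33. In normalized counts the medians were 0.13, 0.18 and 0.03, and 68, 72 and 50 members were above 0, against 54.1%, 52.5% and 51.7% of all genes tested.

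The difference that did set libraries apart was the replicate number. After H2O2, replicate 1 was above replicates 2 and 3 in TPM for 71 of 73 members, against 41.6% of all genes tested, and in controls for 73 of 73, against 42.7%. The median ratio of replicate 1 to the mean of replicates 2 and 3 was 1.60 after H2O2 and 1.55 in controls, where the median gene tested had 1.02 in both groups. An F test of the replicate term in the blocked edgeR fit, a test chosen after the values were seen, called 71 of 73 members at a Benjamini-Hochberg adjusted p under 0.05, against 45.9% of all genes tested. In libraries of whole cultures, more cells that express these genes and more of their RNA per cell cannot be told apart. The labels do not say what a replicate number stands for. Replicate 1 had the lowest total count of the H2O2 libraries and the middle total of the controls, below replicate 2 in both groups, and the part of depth in this difference was not tested.

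**Figure D3:**
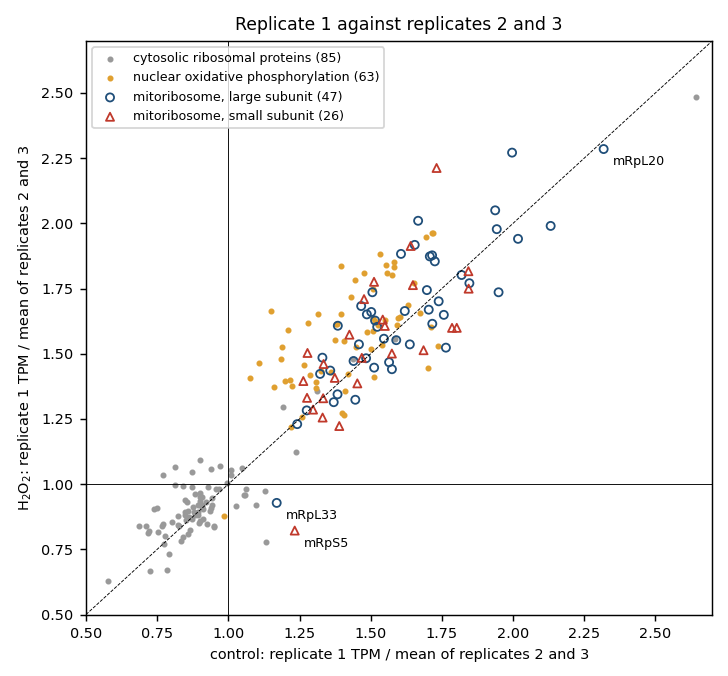
TPM of replicate 1 divided by the mean TPM of replicates 2 and 3, within H2O2 libraries (vertical axis) and within control libraries (horizontal axis), for the 73 mitochondrial ribosomal protein genes (open symbols) and for the 63 nuclear oxidative phosphorylation and 85 cytosolic ribosomal protein genes of at least 5 TPM (dots); each point is 1 gene and the dashed line marks equal ratios. All open symbols except mRpS5 and mRpL33 lie above 1 on both axes, with medians of 1.60 and 1.55, and most cytosolic ribosomal protein genes lie below 1.

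The size of this difference varied among members. It was largest in mRpL20 (FBgn0036335, chromosome 3L, 13017149 to 13017867), singled out here after its values were seen, a homolog of a bacterial large-subunit assembly protein. That gene had 95, 40.2 and 42.9 TPM in H2O2 replicates 1, 2 and 3 and 97.0, 39.0 and 44.7 TPM in control replicates 1, 2 and 3. Replicate 1 was thus 2.28-fold above the mean of the other 2 after H2O2 and 2.32-fold in controls, values that chose the gene and are given as a description, while the log2 fold change for H2O2 was 0.09 (SE 0.08 with the block). The genes mRpL36 and mRpS14 had ratios of 2.27 and 2.21 after H2O2 and 2.0 and 1.73 in controls.

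The 2 members not called for the replicate number were among the 5 most abundant. In mRpS5, replicate 1 was 0.822 times the mean of replicates 2 and 3 after H2O2 and 1.23 times in controls (replicate term, adjusted p = 0.742, edgeR). In mRpL33, a very short large-subunit protein gene of 349 nt (FBgn0040907, chromosome X, 4321764 to 4322231), the H2O2 libraries had 117, 130 and 121 TPM and the controls 149, 124 and 130 TPM, with ratios of 0.928 and 1.17 (adjusted p = 0.641). For both genes the H2O2 library of pair 1 was the lowest of the H2O2 libraries and the control library of pair 1 the highest of all controls, and neither gene was called for H2O2.

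Other mitochondrial gene lists shared the replicate difference to different degrees. The replicate term was called in 60 of 70 tested nuclear oxidative phosphorylation genes, 15 of 15 protein import genes, 10 of 13 mitochondrial translation factor genes, 12 of 20 genes of mitochondrial DNA and RNA metabolism and 6 of 9 mitochondrial chaperone and protease genes. It was called in 31 of 86 cytosolic ribosomal protein genes, against 45.9% of all genes tested. The F test does not say which replicate was high. The median ratio of replicate 1 to the mean of replicates 2 and 3 was 1.55 after H2O2 and 1.42 in controls for oxidative phosphorylation genes, and 0.911 and 0.892 for cytosolic ribosomal protein genes. In the same order it was 1.46 and 1.45 for import, 1.27 and 1.26 for translation factors, 1.35 and 1.26 for DNA and RNA metabolism, and 1.15 and 1.16 for chaperones and proteases. The 7 regulators of mitochondrial biogenesis, 4 of them called, had 1.04 and 1.05, against 1.02 in both groups for the median gene tested. As TPM is a share of the library and cytosolic ribosomal protein genes took 45.4% to 51.9% of it after H2O2 and 43.3% to 47.9% in controls, levels of the 2 sets are not independent.

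In the lists of translation factors, DNA and RNA metabolism, import, chaperones and proteases, and regulators, 0 genes were called for H2O2 without the block. In the list of translation factors, 0 of 13 tested genes were called without the block and 1 lower with it, waw, the homolog of the bacterial elongation factor LepA. It had 9.75, 7.05 and 9.06 TPM after H2O2 and 12.7, 11.8 and 12.8 TPM in controls, lower in every H2O2 library (log2 fold change −0.44, adjusted p = 0.126 without the block, and −0.45, adjusted p = 0.00196 with it, edgeR). The most abundant factors, mEFTu1 and mEFTs, which deliver aminoacyl-tRNA and recycle the carrier, had 0.12 and 0.03. Of 20 DNA and RNA genes, 0 were called without the block and 3 lower with it. In the blocked fit PolrMT, the mitochondrial RNA polymerase, had −0.37 (adjusted p = 0.00233, edgeR), bsf, an RNA-binding protein, −0.32 (adjusted p = 0.00833) and Suv3, a helicase, −0.27 (adjusted p = 0.0387). The most abundant, mtSSB and SLIRP1, both had 0.06.

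Of 15 import genes, Tom70, an outer membrane receptor, was called lower with the block (−0.34, adjusted p = 0.00646, edgeR), and the most abundant, Tom7 and Tim23, had 0.16 and 0.09. Of 9 chaperone and protease genes, the protease gene Lon was called lower with the block (−0.25, adjusted p = 0.0244, edgeR), and Hsc70-5 and Hsp60A had −0.21 and −0.01. Of 7 regulators of mitochondrial biogenesis, srl, the fly homolog of the PGC-1 coactivators (−0.49, adjusted p = 0.0016, edgeR), and the transcription factor Myc (−0.47, adjusted p = 0.00146) were called lower with the block, and crc, the ATF4 homolog and most abundant of the list, had 0.04. When the length trend was taken out of the blocked fit, srl (−0.28, adjusted p = 0.04) and Tom70 (−0.33, adjusted p = 0.0159) were called lower and the other 6 were not. Calls lower with the block made up 12.8% of all genes tested, and 1.62% once the trend was taken out. Without the block 2 of 70 oxidative phosphorylation genes were called higher, ATPsynbetaL (adjusted p = 0.0134, edgeR) and SdhBL (adjusted p = 0.0229), both of low level. The first had 0.71 to 1.18 TPM after H2O2 and 0.1 to 0.16 TPM in controls, and the second 0.24 to 0.37 TPM after H2O2 and 0 to 0.04 TPM in controls. With the block, 10 of 70 oxidative phosphorylation genes and 8 of 86 cytosolic ribosomal protein genes were higher and 0 lower, and 2 and 0 were higher once the trend was taken out. Over all genes tested, 2.57% were called higher without the block, 8.99% with it and 5.99% once the trend was taken out.

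Transcript length moved with the fold change over all genes, and the members are short. Their transcripts measured 327 to 1895 nt with a median of 739 nt, against 1873 nt for all genes tested. Among all tested genes of at least 5 CPM (normalized counts scaled to library size), those with transcripts up to 500 nt had a median log2 fold change of 0.18, those of 500 to 1000 nt 0.15, those of 1000 to 2000 nt 0.07 and those above 8000 nt −0.57. The members had 0.20 (7 genes), 0.12 (47 genes) and 0.10 (19 genes) in the 3 shorter ranges. With the length trend of each library removed, the members' median was −0.03 and 28 of 73 were above 0, against a median of −0.00 and 48.7% for all genes tested, so the direction of the members' median turned. The replicate term was called in 67 of 73 members in the blocked fit with the trend removed. The share of all genes called for it in that fit is not given here, so the count is not read as particular to the members.

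**Figure D4:**
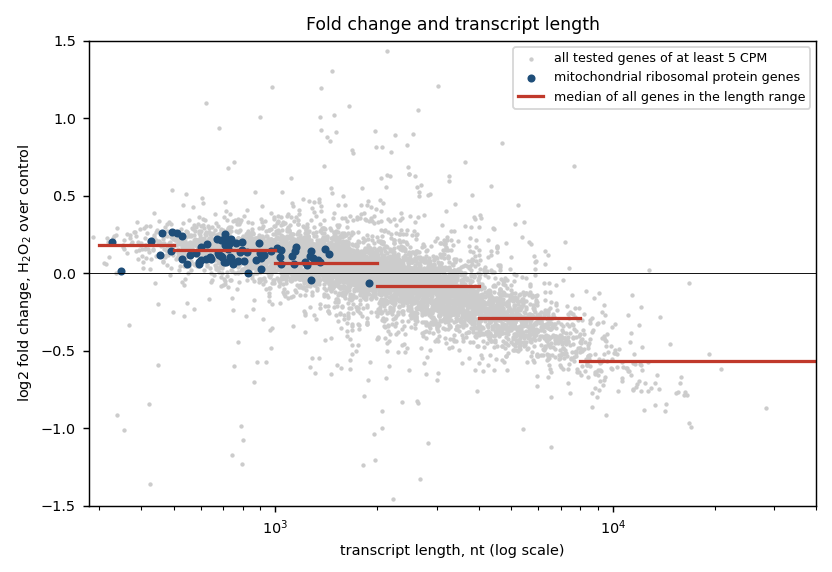
Log2 fold change of H2O2 over control (vertical axis) against transcript length in nt (log axis) for all tested genes of at least 5 CPM (grey) and the 73 mitochondrial ribosomal protein genes (blue); red lines are medians of all genes by length range. The blue points lie between −0.06 and 0.27 and within the cloud of genes of their length, whose medians fall to −0.57 above 8000 nt.

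With group as the only term, the median fold change also turned on single libraries, each left out while its same-numbered partner stayed in. Without H2O2 replicate 1 it was −0.13 with 9 of 73 members above 0, and without control replicate 1 it was 0.36 with 73 of 73 above 0. It was −0.01 without control replicate 2 and 0.03 without control replicate 3. It was 0.21 and 0.24 when H2O2 replicate 2 or 3 was left out. In each of these fits 0 members were called and 0 had an unadjusted p under 0.05 (edgeR). Of all genes tested, 9051 to 9163 in these fits, 154, 0 and 113 were called without H2O2 replicate 1, 2 or 3. Without control replicate 1, 2 or 3 it was 91, 0 and 0. Where 0 of all genes were called, the 0 among the members is not a result about them. An unadjusted p under 0.05 was reached by 891 to 1437 of all genes. Without both libraries numbered 1, an alternative added after the data were seen, the median was 0.10. In that fit 0 members and 0 of all 9098 genes tested were called. With all 6 libraries and the block, the median was 0.12. In TPM, where no TMM scaling enters, the median was 0.01 with 42 of 73 above 0, while the median of all genes that passed the TPM filter was −0.08, a distance of 0.09 from the median gene, as in the counts. Without the TPM filter the median of all genes was −0.0095 and the distance 0.021.

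**Figure D5:**
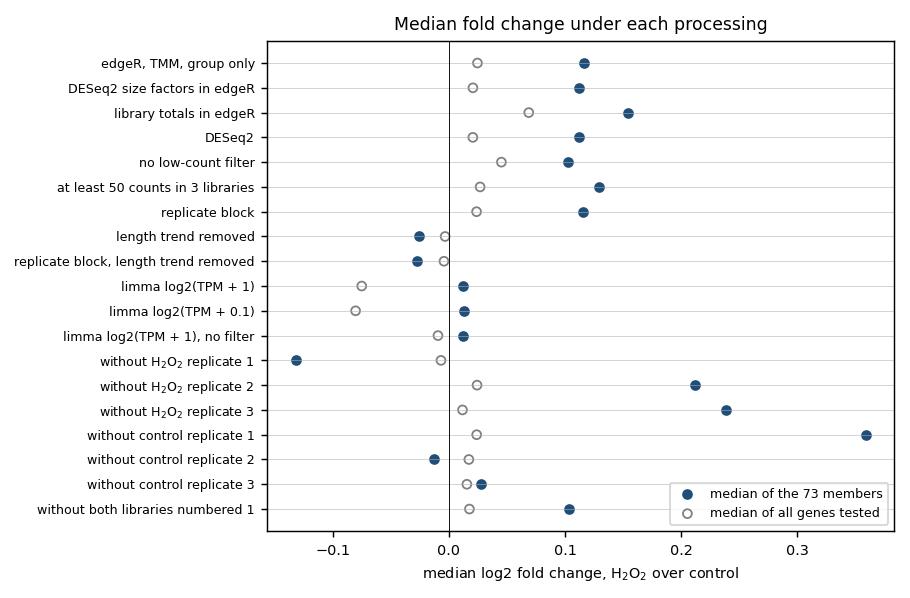
Median log2 fold change of H2O2 over control of the 73 members (filled) and of all genes tested (open) under each processing, 1 row per processing. The member median moves from −0.13 without H2O2 replicate 1 to 0.36 without control replicate 1, while the median of all genes stays between −0.08 and 0.07.

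The members share features of gene structure that the symbol rule did not use. They are spread over the 5 major chromosome arms, with 21 on 3R, 17 on 3L, 12 each on 2L and 2R and 11 on X. By exon number, 32 have 2 exons, 24 have 3 and 9 have a single exon in the canonical transcript of Ensembl (BDGP6.54, the assembly also called dm6). Exon numbers were not compared with those of other genes. A protein-coding neighbour that starts within 500 bp upstream and is transcribed away from the member was found for 51 of 73, or 69.9%, against 34.9% of 8542 tested protein-coding genes. Examples named after they were seen are mRpL11, which starts 126 bp from HtrA2, a mitochondrial protease gene, and mRpL35, which starts 192 bp from Mitofilin, a gene of the inner membrane organising complex. None of these neighbours was itself a member.

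For the 48 tested neighbours on the other side of such a paired start, values are given without a test against the members. Their median log2 fold change was −0.04, with 2 called without the block and with the block 2 higher and 8 lower. Among all genes tested 3.14% were called without the block, and 8.99% higher and 12.8% lower with it. The replicate term was called in 29 of them, or 60.4%, against 45.9% of all genes tested, and their median ratio of replicate 1 to the other replicates was 1.19 after H2O2 and 1.21 in controls. Their transcripts had a median length of 1882 nt.

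Overlap with a gene on the opposite strand was annotated for 42 of 73 members, or 57.5%, against 38.6% of tested protein-coding genes. The library kit keeps strand, but the sources do not say whether strand was used in counting. How reads from the overlapped ends were assigned was not tested. The posterior SD of the count, read as a score of shared reads, was 0 in members that overlap on the opposite strand only. An example is mRpS24, which overlaps TBC1d7 by 387 bases. Overlap on the same strand occurred in 3 members, or 4.11%, against 11.0%. In mRpL53 it made the count itself uncertain: the gene lies within CG33155 on the same strand, and the posterior SD of its count reached 641 reads in control replicate 1 and 65.4% of the count in H2O2 replicate 3. The fold change of mRpL53 rests on this uncertain split. In mRpL13 the posterior SD reached 4.37 reads, and in the other 71 members it was 0.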

How the data were processed

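RNA was measured in 3 H2O2 and 3 control libraries of S2 cells. STAR 2.4.0j, RSEM 1.2.21 and build dm6 are named, per the submitters' processing notes. Which annotation was counted is not given here. Per the file headers, the deposited tables give an expected count per gene (shared reads divided by probability), TPM, lengths, and a posterior SD of the count, read as a score of shared reads. Expected counts as deposited were rounded and tested, and the authors' TPM values give levels.

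In edgeR 4.0.16 under R 4.3.3, filterByExpr left 8955 genes, fitted with TMM scaling and a robust two-sided quasi-likelihood F test with group as the only term. A gene was called at an adjusted p under 0.05 (Benjamini-Hochberg, over all genes). SE is the fold change over the square root of F. DESeq2 1.42.0 and limma 3.58.1 (log2(TPM + 1), at least 1 TPM in 3 libraries) were alternatives, with others on scaling, filter, replicate block, single libraries and transcript length (a loess of each library's log2 CPM deviations on log2 length, span 0.4, used as offset). Fits were tested on simulated data with 200 changed genes.

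Replicates are numbered 1 to 3 in each group. Deviations from group means correlated at 0.717, 0.518 and 0.601 between same-numbered libraries, so the numbers were read as pairing them, which rests on the data, not the labels. No libraries were duplicates (chi-square per degree of freedom 45.5 to 211 over all library pairs).

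Members and lists were chosen with earlier results of these data known. The lists held 2 symbols, mEFG2 and Tim44, that matched no gene. Named members were the called ones, the 5 highest and 5 lowest by level and by fold change, and a list of roles. Those beyond it (mRpL20, mRpL13, mRpL35, waw, PolrMT, bsf, Suv3, Tom70, Lon, Myc, gcm, ATPsynbetaL and SdhBL) were named after their values were seen.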

Additional observations from a re-analysis of the deposited data

How the results depend on the processing

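Members called for H2O2 stayed at 0 in each alternative except the replicate block, where 2 were higher (mRpS34 and mRpL42). All genes called numbered 281 (230 higher, 51 lower), against 706 by DESeq2 (360 and 346), 76 with at least 50 counts in 3 libraries, 1947 with the replicate block (805 and 1142), 681 with the block and length trend removed (536 and 145), 64 and 69 by limma on log2(TPM + 1) and log2(TPM + 0.1), and 0 to 154 when 1 library was left out. Without both libraries numbered 1 it was 0 in edgeR, where 1578 genes had an unadjusted p under 0.05. Calls were 0 without H2O2 replicate 2, control replicate 2 or control replicate 3, where 891, 1054 and 1054 genes had one. The members' median log2 fold change was 0.12, but −0.026 with the length trend removed, −0.027 with the replicate block as well, 0.012 in limma on log2(TPM + 1) with and without a filter, 0.0127 on log2(TPM + 0.1), and −0.13 to 0.36 with 1 library left out. Members above 0 numbered 70, but 28 with the trend removed, 26 with the block as well, 42 in the TPM fits, and 9 to 73 with 1 library left out. The cause was not tested. The median of all genes was 0.02, against −0.08 in both filtered TPM fits and −0.0095 in the unfiltered one. Genes called for the replicate number were 4109 and 2659 to 3813 with 1 library left out, and members 71 and 61 to 71. Of 486 values for 27 named members, 384 kept sign and call, 100 changed sign with no call in either fit, 2 gained a call and 0 lost one. Precision is limited by 3 libraries per group, and in mRpL53 by shared reads; the share due to depth was not tested.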

Other observations

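In 3 members the annotation places another gene on the same strand over all or part of the gene, and their values can be read beside it. The gene mRpL53 had 1153, 682 and 662 expected counts in H2O2 replicates 1, 2 and 3 and 1235, 588 and 595 in control replicates 1, 2 and 3, nearly the same as the 1166, 709 and 667 counts after H2O2 and 1248, 598 and 606 counts in controls assigned to CG33155. With a posterior SD of up to 65.4% of the count, their separate levels are not known. The gene mRpL13 overlaps CG10602, which had 6120, 5179 and 4655 counts after H2O2 and 6088, 4716 and 4320 in controls, with a log2 fold change of 0.02, against 0.22 for mRpL13, and neither was called. The gene mRpS14 overlaps CG32533 by 30 bases, and CG32533 had a log2 fold change of −0.09, not called, against 0.26 for mRpS14, with no posterior SD above 0 for mRpS14.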
